A study of Homo sapiens with 16 samples.

Results

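The aryl hydrocarbon receptor genes described here were 7 genes of the 18332 in the count table: the receptor AHR, its dimerization partners ARNT and ARNT2, the cytochrome P450 genes CYP1A1 and CYP1B1, and the repressors AHRR and TIPARP. They were chosen by symbol, with measured values of these cells in view, and all 7 were found and passed the filter on low values in every comparison. Their differences between groups are therefore given as a description, without tests. RNA sequencing measured their expression in MDA-MB-231 and a second line, MDA-MB-468, both established from human breast cancers and ER negative per the labels. Each line was grown for 48 hours in low glucose (5 mM, the control) or high glucose (25 mM, the model of hyperglycemia), with 4 replicates in each of the 4 groups and 16 samples in all. All cells were first conditioned in low-glucose medium and were then kept without serum. Stock cultures were kept in a base medium that differed by line, the base of the glucose media is not stated by line in the sources used here, and each line is a single model. The sources do not say whether the replicates were separate cultures, so errors and p-values measure the spread between these samples, which may be technical.

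AHR is a transcription factor of the basic helix-loop-helix PAS (bHLH-PAS) family that waits in the cytosol, bound to a chaperone complex with HSP90 and the co-chaperone p23. When a ligand binds, such as a dioxin, a polycyclic aromatic hydrocarbon or a tryptophan metabolite, the receptor enters the nucleus, pairs with ARNT and binds xenobiotic response elements whose core reads GCGTG. CYP1A1 and CYP1B1, which oxidize aromatic hydrocarbons and estrogens, are classical targets. AHRR and TIPARP are targets too, and both feed back to restrain the receptor.

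The promoter sequences of the target genes are shown because the receptor is known to act through this core. Of the 7 members, 5 had an entry in the RefSeq promoter table (build GRCh38.p14), with 8 start sites among them. CYP1B1 and ARNT2 had none, so no sequence is shown for them. In each, the 250 bases before the start were searched for GCGTG on both strands. A match was found in 4 of the 8 windows, against 32.2% of all 35116 windows of the same length, and 10.2% of all windows held 2 or more. Windows of the same gene were counted separately, so the 8 do not stand for 8 genes. CYP1A1 (chr15:74725529-74725778, minus strand) had 1 match, 57 to 53 bases before the start. AHRR had 1 match before its first start (chr5:321464-321713, plus strand), at 30 to 26 bases, and 2 before its second (chr5:322360-322609, plus strand), at 247 to 243 and 42 to 38 bases. TIPARP had 2 matches before its first start (chr3:156674340-156674589, plus strand), at 208 to 204 and 142 to 138 bases, both on the opposite strand, where the core reads CACGC. The windows of AHR and ARNT and the other TIPARP windows held no match. A match is a run of letters and was not tested for binding. Bases outside these windows were not searched, so a response element farther from the start would be missed. The sequences follow 5′ to 3′ on the strand of the gene, with the core in capitals.
CYP1A1: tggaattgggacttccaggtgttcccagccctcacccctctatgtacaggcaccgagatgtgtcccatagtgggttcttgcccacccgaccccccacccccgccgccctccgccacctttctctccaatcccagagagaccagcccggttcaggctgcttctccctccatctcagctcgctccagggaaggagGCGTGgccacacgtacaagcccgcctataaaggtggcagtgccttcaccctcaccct
AHRR, first start: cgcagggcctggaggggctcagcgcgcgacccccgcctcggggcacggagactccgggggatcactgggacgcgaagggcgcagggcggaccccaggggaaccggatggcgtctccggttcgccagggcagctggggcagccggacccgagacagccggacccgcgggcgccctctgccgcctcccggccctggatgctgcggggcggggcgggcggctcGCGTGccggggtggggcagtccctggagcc
AHRR, second start: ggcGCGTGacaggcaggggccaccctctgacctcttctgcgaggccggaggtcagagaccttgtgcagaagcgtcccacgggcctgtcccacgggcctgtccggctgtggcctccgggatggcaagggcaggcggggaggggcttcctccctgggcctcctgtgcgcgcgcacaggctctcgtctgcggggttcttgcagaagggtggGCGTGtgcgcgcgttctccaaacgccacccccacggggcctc
TIPARP, first start: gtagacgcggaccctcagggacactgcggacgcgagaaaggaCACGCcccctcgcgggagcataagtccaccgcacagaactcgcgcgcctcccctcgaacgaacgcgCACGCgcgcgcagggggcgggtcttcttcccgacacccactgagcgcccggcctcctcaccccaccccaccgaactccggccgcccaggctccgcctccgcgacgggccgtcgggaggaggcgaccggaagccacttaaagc

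The libraries held between 14094597 and 24425916 reads, recovered from the deposited values, so that 3 reads, taken as the floor of detection, corresponded to 0.123 to 0.213 CPM (reads scaled to library size). This floor covers counting error only. Pairs of replicates of a group differed by more than counting error. Markers were checked as lists, and the lines differed in most of them. Of the mesenchymal list, MDA-MB-231 held VIM at 5247 to 5694 CPM, with ZEB1 and FN1 also above those of the other line, while CDH2 was at most 0.819 CPM. MDA-MB-468 held VIM at no more than 2.19 CPM and FN1 at 37.8 to 50.5 CPM. Of the basal list, KRT5 was at 923 to 1109 CPM in MDA-MB-468 and at most 0.165 CPM in MDA-MB-231. EGFR was at 481 to 539.8 CPM in MDA-MB-231 and higher, at 3604 to 4141 CPM, in MDA-MB-468. The luminal epithelial list summed to 1608 to 1808 CPM in MDA-MB-231 and to 5775 to 7288 CPM in MDA-MB-468. The estrogen receptor gene ESR1 did not exceed 0.170 CPM in MDA-MB-231, while MDA-MB-468 held 2.41 to 4.41 CPM. The 3 leukocyte markers found summed to 124 to 138 CPM in MDA-MB-231, nearly all of it CD68 (122 to 137 CPM), and to 7.78 to 16.9 CPM in MDA-MB-468, most of it CD14 (5.04 to 14.3 CPM). PTPRC, which defines leukocytes, was between 0.0606 and 0.954 CPM over all libraries. The part of these markers in the results was not tested.

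Values below are normalized reads, that is, reads scaled by each library's size factor, and a log2 difference is high minus low glucose on log2(normalized reads + 1). In a bulk culture, fewer cells expressing a gene and less RNA per cell cannot be told apart. The low CYP1A1 of MDA-MB-468 in high glucose was known when these genes were chosen. In that line CYP1A1, CYP1B1, AHRR, TIPARP and ARNT were lower in high glucose, with no overlap between the groups, as were 20.4% of all genes tested in the line. CYP1B1, TIPARP and ARNT2 were lower in this way in MDA-MB-231, beside 11.1% of all genes. CYP1B1 and TIPARP were thus lower in both lines, while AHR itself overlapped between the glucose groups in each line.

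**Figure D1:**
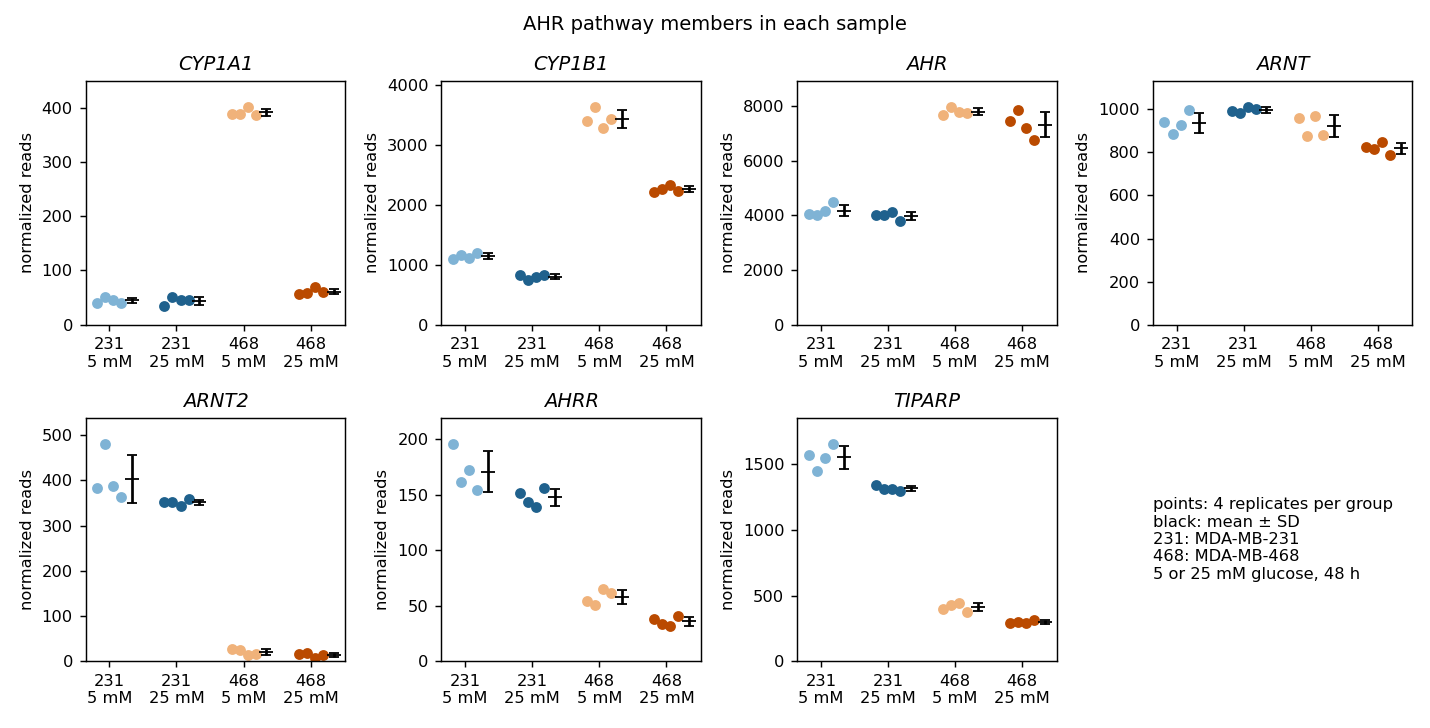
Normalized reads (y axes, from 0, a scale for each gene) of the 7 members in each of the 16 samples, by line and glucose (x axis); points are replicates and the black marks are mean ± SD with n = 4. CYP1A1 stands at 387 to 401 in low-glucose MDA-MB-468 and below 69 in every other sample.

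Of the target genes, CYP1A1 (ENSG00000140465; GRCh37 chr15:75011883-75017877, minus strand) encodes the P450 that is usually the most strongly induced by AHR ligands. In low-glucose MDA-MB-468, replicates 1 to 4 held 389, 388, 401 and 387 normalized reads, a mean of 391 ± 6.41 (SD, n = 4). In high glucose they held 57.4, 57.9, 68.7 and 59.8, a mean of 60.9 ± 5.26 (SD, n = 4). The groups were far apart, with the highest high-glucose sample well under the lowest low-glucose one. The log2 difference was -2.67 (SE 0.09), 6.35-fold lower in high glucose, and 0.0635% of all genes tested in the line were as far down.

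MDA-MB-231 had little CYP1A1 in either medium. In low glucose the 4 replicates held 40.7, 51.9, 45.8 and 40.1 normalized reads (mean 44.6 ± 5.46, SD), and in high glucose 34.1, 50.5, 46.4 and 45.7 (mean 44.2 ± 7.06, SD). The groups overlapped throughout, and the log2 difference was -0.02 (SE 0.17). The glucose difference in MDA-MB-468 minus that in MDA-MB-231 was -2.64 on the log2 scale (SE 0.17). Low-glucose MDA-MB-468 held 8.64-fold more CYP1A1 than low-glucose MDA-MB-231. In high glucose the lines came close, but the lowest MDA-MB-468 sample, at 57.4, was still above the highest MDA-MB-231 sample of either medium, at 51.9.

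CYP1B1 (ENSG00000138061; GRCh37 chr2:38294116-38337044, minus strand) encodes the related P450 that hydroxylates estradiol and is common in breast tissue. MDA-MB-231 held 1103, 1166, 1119.7 and 1195 normalized reads in low glucose (mean 1146 ± 42.3, SD) and 824, 738, 794 and 828 in high glucose (mean 796 ± 41.5, SD). In MDA-MB-468 it was at 3393, 3628, 3279 and 3428 in low glucose (mean 3432 ± 145, SD) and at 2207, 2263, 2327 and 2230.4 in high glucose (mean 2257 ± 52.1, SD). In both lines every high-glucose sample was below every low-glucose sample. MDA-MB-231 had a log2 difference of -0.53 (SE 0.05), 1.44-fold lower, and MDA-MB-468 of -0.60 (SE 0.03), 1.52-fold lower. The difference between these responses was -0.08 (SE 0.06), small beside either of them. In MDA-MB-231 2.25% of all genes tested were as far down, and in MDA-MB-468, where more genes differed, 7.56%. RMDN2 and CYP1B1-AS1 overlap CYP1B1 on the other strand and held at most 112 and 24.4 normalized reads in any sample. Whether the counting used strand is not given in the sources used here.

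CYP1B1 exceeded CYP1A1 in all 16 samples, and the ratio of the P450 genes differed between groups. Scaled by transcript length, CYP1A1 was at 22.9% ± 1.26 (SD, n = 4) of CYP1B1 in low-glucose MDA-MB-468, with a range of 21.4% to 24.5%, and at 5.41% ± 0.354 in high glucose, with a range of 5.13% to 5.92%. In MDA-MB-231 it was at 7.81% ± 0.949 in low glucose and at 11.2% ± 2.24 in high glucose, where the ranges of 6.73% to 8.91% and 8.28% to 13.7% overlapped. The ratio was thus lower with high glucose in MDA-MB-468, and its mean was higher with high glucose in MDA-MB-231.

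Of the feedback genes, TIPARP (ENSG00000163659; GRCh37 chr3:156391024-156424559, plus strand) encodes a mono-ADP-ribosyltransferase that modifies AHR and limits its activity. The MDA-MB-231 samples held 1565, 1443, 1542 and 1652 normalized reads in low glucose (mean 1551 ± 85.8, SD) and 1342, 1309.5, 1309.6 and 1293 in high glucose (mean 1313 ± 20.6, SD). In MDA-MB-468 it was at 402, 430.2, 440.2 and 377 in low glucose (mean 412 ± 28.5, SD) and at 292, 301, 288 and 315 in high glucose (mean 299 ± 12.1, SD). The glucose groups did not overlap in either line, and all high-glucose samples were the lower ones. MDA-MB-231 had a log2 difference of -0.24 (SE 0.04), 1.18-fold lower, and MDA-MB-468 of -0.46 (SE 0.06), 1.38-fold lower. Unlike CYP1A1 and CYP1B1, TIPARP was the higher in MDA-MB-231, by 3.76-fold in low glucose.

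AHRR (ENSG00000063438; GRCh37 chr5:321829-438406, plus strand) encodes the AHR repressor, which competes with AHR for ARNT and for the response element. In MDA-MB-468 it was at 54.6, 50.9, 64.8 and 62.0 normalized reads in low glucose (mean 58.0 ± 6.43, SD) and at 37.9, 33.9, 32.0 and 40.5 in high glucose (mean 36.1 ± 3.82, SD). No high-glucose sample reached the lowest low-glucose one, and the log2 difference was -0.67 (SE 0.16), 1.59-fold lower. These high-glucose values rest on only 28 to 48 reads per library. The MDA-MB-231 samples held 196, 161, 172 and 154 in low glucose and 152, 143, 139 and 156 in high glucose, where the groups overlapped by 1 sample on each side and the log2 difference was -0.21 (SE 0.09). AHRR, like TIPARP, was the higher in MDA-MB-231, by 2.91-fold in low glucose. Its exons are shared with the read-through gene PDCD6-AHRR on the same strand, which was not analysed here, so the AHRR values are uncertain to that extent.

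The receptor gene AHR (ENSG00000106546; GRCh37 chr7:16955983-17385776, plus strand) was the most abundant member per length in all 4 groups. In MDA-MB-231 it was at 4046, 4029.6, 4159 and 4485 normalized reads in low glucose and at 4012, 4009, 4121 and 3788 in high glucose. In MDA-MB-468 it was at 7663, 7968, 7802 and 7759.6 in low glucose and at 7473, 7862, 7206 and 6779 in high glucose. The glucose groups overlapped in both lines. The log2 differences were -0.07 (SE 0.04) and -0.09 (SE 0.04), whereas low-glucose MDA-MB-468 held 1.87-fold more AHR than low-glucose MDA-MB-231, with every sample above. Between the lines 28.3% of all genes tested were as far up.

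ARNT (ENSG00000143437; GRCh37 chr1:150782189-150849184, minus strand) encodes the partner that AHR and the hypoxia-inducible factors share. In MDA-MB-468 it was at 958, 875, 971 and 882 normalized reads in low glucose (mean 921 ± 49.9, SD) and at 823, 816, 848 and 786 in high glucose (mean 818 ± 25.7, SD), a log2 difference of -0.17 (SE 0.05). In MDA-MB-231 it was at 940.3, 884, 926 and 998 in low glucose (mean 937 ± 47.4, SD) and at 991, 980.3, 1009.6 and 1002 in high glucose (mean 996 ± 13.0, SD), a log2 difference of 0.09 (SE 0.04). The MDA-MB-468 groups stood apart by a small step, and the MDA-MB-231 groups overlapped, with the high-glucose mean the higher one. ARNT was the sole member with a higher mean in high glucose, and its low-glucose levels in the lines overlapped, with a difference of -0.02 (SE 0.04).

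ARNT2 (ENSG00000172379; GRCh37 chr15:80696692-80890274, plus strand), a paralog of ARNT best known from neurons, was far higher in MDA-MB-231 than in the other line. There it was at 383, 480.5, 387 and 363 normalized reads in low glucose and at 351, 351, 344 and 359 in high glucose. In MDA-MB-468 it was at 26.9, 24.3, 14.0 and 17.1 in low glucose and at 15.6, 19.7, 8.01 and 15.2 in high glucose. The MDA-MB-231 groups came within a few reads of each other without overlap, at a log2 difference of -0.19 (SE 0.08), and the MDA-MB-468 groups overlapped, at -0.49 (SE 0.31). Replicate 2 of low-glucose MDA-MB-231, at 480.5, was the high sample of its group, and without it the difference was -0.10. Without replicate 3 of high-glucose MDA-MB-468, the low sample at 8.01, that line's difference was -0.24. In low glucose ARNT2 was 19.2-fold lower in MDA-MB-468 than in MDA-MB-231. Per length it was at 31.3% ± 5.59 (SD, n = 4) of ARNT in low-glucose MDA-MB-231 and at 1.62% ± 0.483 in low-glucose MDA-MB-468.

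**Figure D2:**
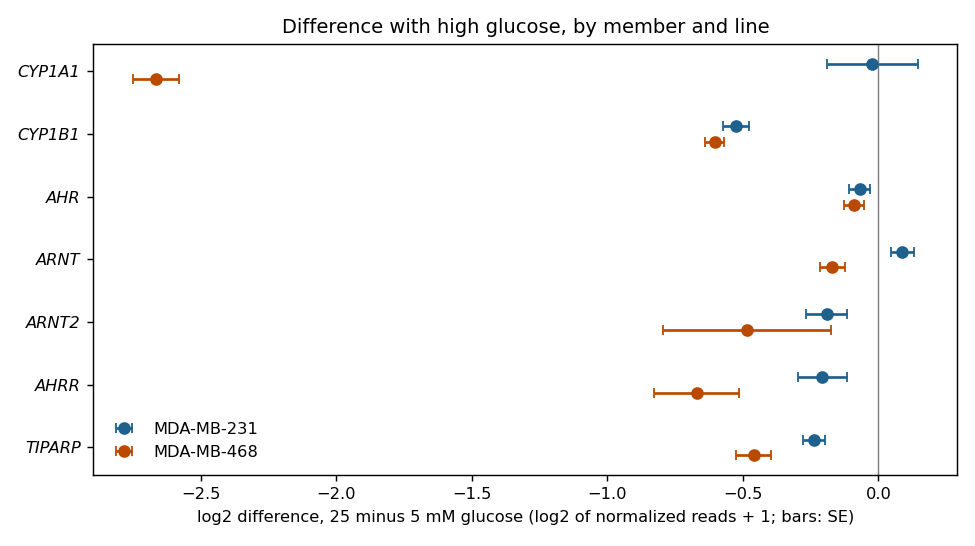
Log2 difference (x axis, 25 minus 5 mM glucose, on log2 of normalized reads + 1) of each member (y axis) in MDA-MB-231 (blue) and MDA-MB-468 (orange); bars are the SE, with 4 replicates per group. All 7 MDA-MB-468 points lie below 0, with CYP1A1 at -2.67, and 6 of the 7 MDA-MB-231 points do. The median over all genes was 0.00 in each line. CYP1A1 in MDA-MB-231, at -0.02 (SE 0.17), ranged from -0.09 to 0.10 when a replicate was left out.

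Set against all genes, the counts of members read as follows. In MDA-MB-231 3 of the 7 members had every high-glucose sample below every low-glucose sample, against 11.1% of all 14884 genes tested. In MDA-MB-468 5 members did, against 20.4% of all 15757 genes. In both lines 2 members did, CYP1B1 and TIPARP, where 3.16% of the 13573 genes tested in both were lower in this way. These shares are printed for scale only, since the members were picked with such values known. The median log2 difference over the 7 members was -0.19 for MDA-MB-231 and -0.49 for MDA-MB-468, beside 0.00 over all genes in each line. The glucose difference of MDA-MB-468 minus that of MDA-MB-231 was -0.46 (SE 0.15) for AHRR, -0.26 (SE 0.06) for ARNT and -0.22 (SE 0.07) for TIPARP on the log2 scale. It was -0.29 (SE 0.31) for ARNT2 and -0.02 (SE 0.06) for AHR, and the values of CYP1A1 and CYP1B1 are given above. Between the lines in low glucose most genes differed, with 85.4% of all 17115 tested called by limma. As far up in MDA-MB-468 as CYP1A1 were 9.02% of all genes, and as CYP1B1 18.2%. As far down as ARNT2 were 4.46%, as TIPARP 12.1% and as AHRR 14.7%.

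**Figure D3:**
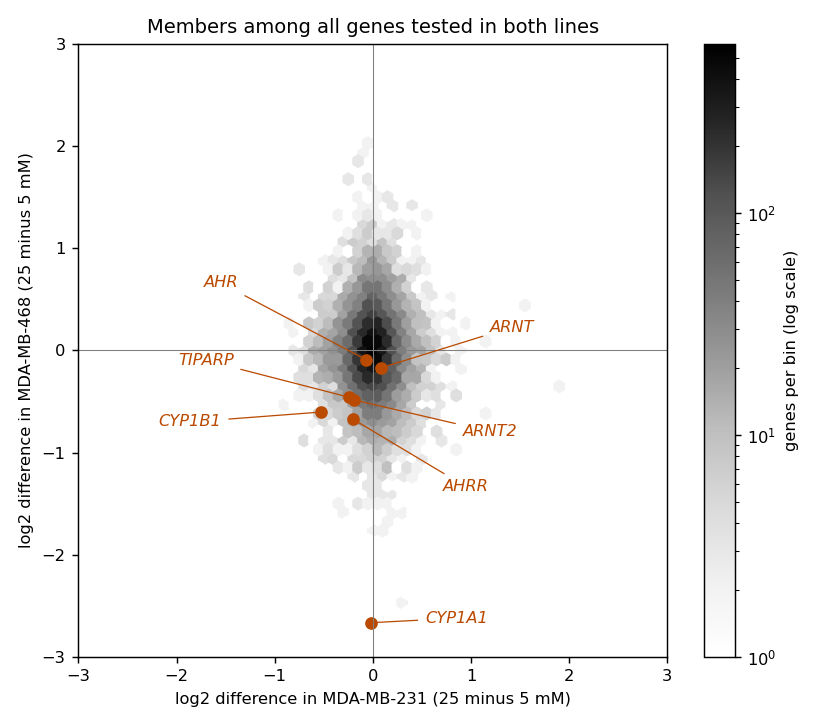
Log2 difference with high glucose for MDA-MB-231 (x axis) against that for MDA-MB-468 (y axis) for the genes tested in both lines, as shaded bins (number of genes on a log scale), with the members as labelled points; 13567 of 13573 genes lie inside the axes. CYP1A1 sits at the lower edge on the MDA-MB-468 axis and near 0 on the MDA-MB-231 axis, and the other 6 members lie within the cloud.

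Per length, in CPM per kilobase of the canonical transcript, the order of the members differed between the lines. In low-glucose MDA-MB-231 it ran AHR (38.6 ± 2.10, SD, n = 4), TIPARP (23.2 ± 1.30), CYP1B1 (12.7 ± 0.547), ARNT (11.5 ± 0.599), ARNT2 (3.57 ± 0.474), AHRR (1.74 ± 0.175) and CYP1A1 (0.989 ± 0.123). CYP1B1 and ARNT lay about 2 SD apart there, and in high glucose they had the other order, with ARNT at 12.4 ± 0.202 and CYP1B1 at 8.96 ± 0.447. In low-glucose MDA-MB-468 the order was AHR (79.4 ± 1.17), CYP1B1 (41.8 ± 1.71), ARNT (12.4 ± 0.666), CYP1A1 (9.56 ± 0.154), TIPARP (6.79 ± 0.449), AHRR (0.652 ± 0.0739) and ARNT2 (0.200 ± 0.0585). In high-glucose MDA-MB-468 CYP1A1 was at 1.46 ± 0.120, below TIPARP at 4.83 ± 0.192. Within a library TIPARP lay between 57.9% and 62.5% of AHR in low-glucose MDA-MB-231 and between 7.86% and 9.12% in low-glucose MDA-MB-468. AHRR was at 4.53% ± 0.634 and 0.821% ± 0.0957 of AHR in the same groups (SD, n = 4).

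Genes whose levels followed each member most closely over the 16 samples were looked for among 15037 genes. The points come from 2 lines, so a gene that differs between the lines in the same sense already gives a high Pearson r. For AHR, ARNT2, AHRR and TIPARP the closest genes (PTBP3, r = 0.998; TMEM158, r = 0.997; COLGALT1, r = 0.993; EXT1, r = 0.998) had such a line difference. CCN2 and ANKRD1, known targets of YAP signaling, came next to TIPARP, both at r = 0.997. CYP1B1 was closest to SMCHD1 (r = 0.992), which also differed between the lines. SMCHD1 was at 1553 ± 72.1 and 1302 ± 24.1 normalized reads in low- and high-glucose MDA-MB-231 (SD, n = 4). In low- and high-glucose MDA-MB-468 it was at 3134 ± 93.7 and 2594 ± 71.2, so its mean too was lower with high glucose in both lines. For CYP1A1 the closest were GLA, the lysosomal alpha-galactosidase (r = 0.978), the histone demethylase KDM5B (r = 0.978) and TXNL4B (r = 0.977). GLA was at 422 ± 18.2 and 431 ± 25.2 normalized reads in low- and high-glucose MDA-MB-231, and at 664 ± 18.9 and 480.1 ± 17.0 in low- and high-glucose MDA-MB-468 (SD, n = 4), so that it too was highest in low-glucose MDA-MB-468. ARNT had the weakest match, GTF2H2C at r = 0.911, a gene with near-identical copies whose reads are uncertain.

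The wider pathway was taken as 7 lists with 66 genes, of which 59 were found, and these were tested with limma, with Benjamini-Hochberg adjustment over all genes. Like the members, the lists were chosen with earlier results of these data known, so they are not an independent test set. In MDA-MB-231 7 of 45 tested genes passed, 3 higher and 4 lower, which is 15.6% beside 15.1% of all genes, with a median log2 difference of -0.01. In MDA-MB-468 29 of 50 passed, 16 higher and 13 lower, which is 58% beside 47.6% of all genes, with a median of 0.02. Genes that passed thus lay on both sides of 0 in each line. The difference between the lines' responses passed for 17 of 53 genes, or 32.1% beside 30.9%.

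**Figure D4:**
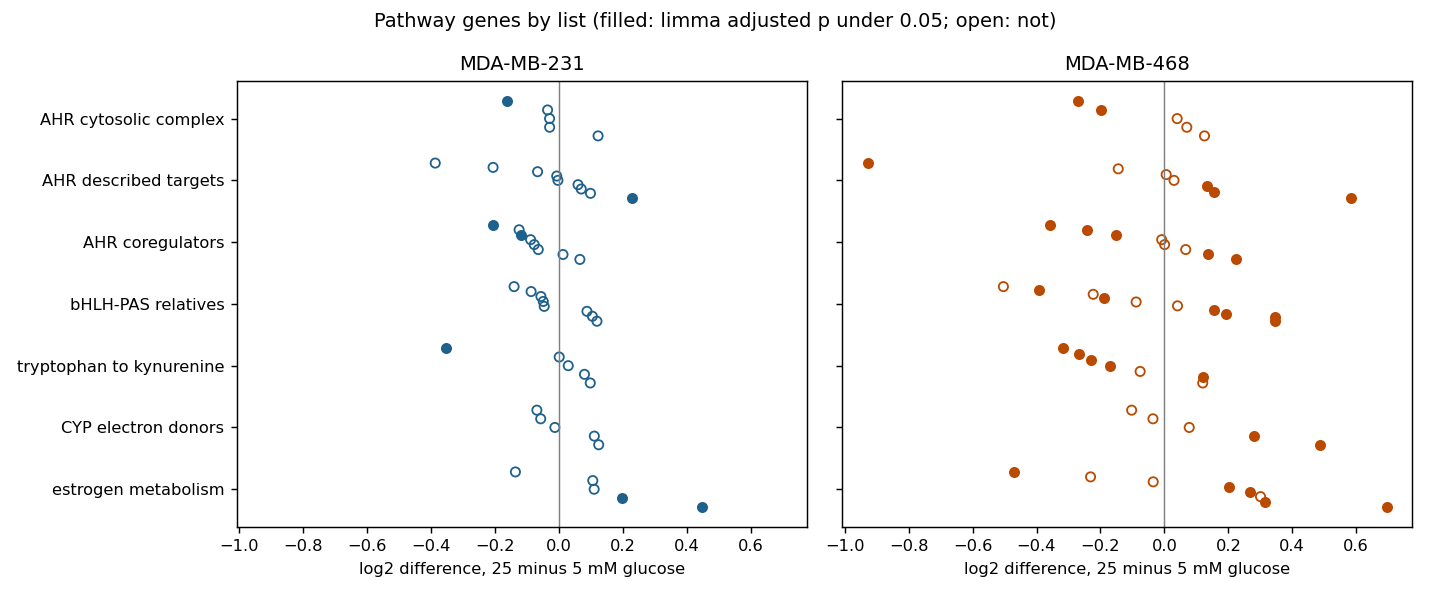
Log2 difference with high glucose (x axis, 25 minus 5 mM) of each tested pathway gene, by list (y axis), in MDA-MB-231 (left) and MDA-MB-468 (right); filled points passed limma's adjusted threshold of 0.05 and open points did not. Points lie on both sides of 0 in every list and line, and the farthest is ALDH3A1 at -0.93 in MDA-MB-468.

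Among the proteins that hold AHR in the cytosol, 1 of 5 genes passed in MDA-MB-231 and 2 of 5 in MDA-MB-468, all lower, with list medians of -0.03 and 0.04. HSP90AA1, the inducible cytosolic HSP90, fell from 25751 ± 796 to 23005 ± 460.0 normalized reads (SD, n = 4) in MDA-MB-231 (log2 difference -0.16, SE 0.03, limma adjusted p = 0.000636). MDA-MB-468 had a fall by 0.20 on the log2 scale (limma adjusted p = 5.29e-05). Its processed copies in the genome make the counts less certain. PTGES3, the co-chaperone p23, fell in MDA-MB-468 from 6824 ± 226 to 5662 ± 117 (log2 difference -0.27, SE 0.03, limma adjusted p = 1.66e-06).

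Other genes described as AHR targets did not follow CYP1A1 together. Of this list 1 of 9 tested genes passed in MDA-MB-231, and 4 of 7 in MDA-MB-468, 3 of them higher and 1 lower, with medians of 0.00 and 0.03. ALDH3A1, an aldehyde dehydrogenase of the classical AHR battery, fell in MDA-MB-468 from 188 ± 9.11 to 99.4 ± 17.6 normalized reads (SD, n = 4), 1.90-fold (log2 difference -0.93, SE 0.12, limma adjusted p = 6.16e-06). Its MDA-MB-231 means were 69.5 and 65.9 and did not pass the test, and the difference between the responses was -0.86 (SE 0.17, limma adjusted p = 0.00118). NQO1, a quinone reductase that NRF2 drives as well, went the other way and rose in both lines. The NQO1 mean of MDA-MB-231 rose from 3130 ± 16.1 to 3671 ± 128 (log2 difference 0.23, SE 0.03, limma adjusted p = 7.78e-05). That of MDA-MB-468 rose from 1749.8 ± 73.5 to 2619.7 ± 73.2 (log2 difference 0.58, SE 0.04, limma adjusted p = 2.60e-09). HES1, a NOTCH and AHR target, rose by 0.15 on the log2 scale in MDA-MB-468 (limma adjusted p = 0.0177). That call was lost without low-glucose replicate 3 (adjusted p = 0.0706) and without high-glucose replicate 4 (adjusted p = 0.0559), both by limma. UGT1A1 and UGT1A6, conjugating enzymes that share exons, were listed at 0 reads in every sample.

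Among 8 coregulators that AHR recruits, 2 passed in MDA-MB-231, both lower, and 5 in MDA-MB-468, 2 higher and 3 lower, with medians of -0.08 and 0.00. SMARCA4, the BRG1 chromatin remodeler, fell in MDA-MB-231 from 5467 ± 182 to 4741 ± 156 normalized reads (log2 difference -0.21, SE 0.03, limma adjusted p = 0.000329). MED1, a Mediator subunit, fell among the MDA-MB-468 samples from 1215 ± 52.7 to 949.8 ± 81.1 (log2 difference -0.36, SE 0.05, limma adjusted p = 5.06e-05), and EP300, a histone acetyltransferase, fell by 0.24 on the log2 scale (limma adjusted p = 0.000208). NRIP1, the corepressor RIP140, rose there by 0.22 (limma adjusted p = 4.24e-05). CREBBP, the paralog of EP300, fell by 0.12 in MDA-MB-231 at the edge of the threshold (limma adjusted p = 0.0491). It lost the call without low-glucose replicate 1, 3 or 4 and without high-glucose replicate 2, 3 or 4, with limma adjusted p between 0.0785 and 0.152.

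Among the other bHLH-PAS genes 0 of 8 passed limma in MDA-MB-231, with 2 at an unadjusted p under 0.05 and 0 called by edgeR or DESeq2, and the median was -0.05. In MDA-MB-468 6 of 10 passed, 4 higher and 2 lower, with a median of -0.02. The clock genes ARNTL (BMAL1) and NPAS2 rose there, ARNTL from 246 ± 9.78 to 314 ± 20.7 normalized reads (log2 difference 0.35, SE 0.07, limma adjusted p = 0.000506) and NPAS2 by 0.35 (limma adjusted p = 0.00305). SIM1, a developmental factor that can also pair with ARNT, fell by 0.39 (limma adjusted p = 0.00301), with overlapping groups. It had no read in low-glucose MDA-MB-231, where the floor is 3 reads per library, and 244 ± 26.5 normalized reads in low-glucose MDA-MB-468.

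The enzymes that turn tryptophan into kynurenines make endogenous AHR ligands. IDO1, IDO2 and TDO2, which open this route, were looked up by symbol and not found, so they were not analysed here. Of the other genes 1 of 5 passed in MDA-MB-231, lower, and 5 of 7 in MDA-MB-468, 1 higher and 4 lower, with medians of 0.03 and -0.17. The aminotransferases KYAT1 and KYAT3, which make kynurenic acid, fell in MDA-MB-468 by 0.32 (limma adjusted p = 0.00795) and by 0.27 (limma adjusted p = 5.52e-05) on the log2 scale. KMO, kynurenine 3-monooxygenase, fell by 0.23 (limma adjusted p = 0.00716). AADAT, another aminotransferase, fell in MDA-MB-231 from 118 ± 7.12 to 92.3 ± 6.85 normalized reads (log2 difference -0.35, SE 0.10, limma adjusted p = 0.0266), a call lost without low-glucose replicate 1 or 3 and without high-glucose replicate 1, 2 or 4 (limma adjusted p between 0.0503 and 0.0803). The lines themselves differed widely: in low glucose all 7 tested genes of this list passed as higher in MDA-MB-468, as did 45% of all genes. QPRT, which makes nicotinic acid mononucleotide at the end of the route, was at 4271 ± 13.8 normalized reads in low-glucose MDA-MB-468 and 1.77 ± 0.927 in MDA-MB-231, and KMO at 372 ± 27.6 and 1.20 ± 1.44.

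Of the electron donors and partner enzymes of microsomal P450s, 0 of 5 passed limma in MDA-MB-231, with 1 at an unadjusted p under 0.05 and 0 called by edgeR or DESeq2, and the median was -0.01. In MDA-MB-468 2 of 5 passed, both higher, with a median of 0.08. These were EPHX1, the microsomal epoxide hydrolase that acts on the epoxides CYP1 enzymes form, from 1288 ± 68.8 to 1804 ± 53.9 normalized reads (log2 difference 0.49, SE 0.04, limma adjusted p = 8.28e-08), and CYB5R3, cytochrome b5 reductase, from 1930.1 ± 84.7 to 2346 ± 99.8 (log2 difference 0.28, SE 0.04, limma adjusted p = 2.21e-05). POR, the reductase that feeds electrons to all microsomal P450s, had low- and high-glucose means of 1014 and 1091 for MDA-MB-231, of 1695 and 1786 for MDA-MB-468, and passed in neither line.

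Of the genes for estrogen and catechol metabolism 2 of 5 passed in MDA-MB-231, both higher, and 5 of 8 in MDA-MB-468, 4 higher and 1 lower, with medians of 0.11 and 0.24. STS, steroid sulfatase, fell in MDA-MB-468 from 545 ± 37.1 to 392 ± 22.9 normalized reads (log2 difference -0.47, SE 0.06, limma adjusted p = 8.94e-06). GSTP1, which conjugates estrogen quinones, rose there from 42.2 ± 4.32 to 69.1 ± 8.58 (log2 difference 0.69, SE 0.15, limma adjusted p = 0.00097), at a level far under the 1244 of low-glucose MDA-MB-231. HSD17B2, which turns estradiol into estrone, rose by 0.32 (limma adjusted p = 0.004), and had no read in low-glucose MDA-MB-231. SULT1A1, a sulfotransferase with near-identical copies whose reads are uncertain, was at 232 ± 16.8 normalized reads in low-glucose MDA-MB-468 and at 0.602 ± 0.719 in MDA-MB-231.

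In MDA-MB-231 HSD17B1, which makes estradiol from estrone, rose from 69.4 ± 9.77 to 94.5 ± 4.87 (log2 difference 0.45, SE 0.12, limma adjusted p = 0.0212), and NQO2, a quinone reductase, rose by 0.20 (limma adjusted p = 0.0374). HSD17B1 lost the call without low-glucose replicate 2 or 3 and without high-glucose replicate 1 or 4 (limma adjusted p between 0.0543 and 0.0633). NQO2 lost it without low-glucose replicate 1, 2 or 4 and without high-glucose replicate 1, 2 or 3 (limma adjusted p between 0.0526 and 0.128).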

How the data were processed

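RNA sequencing of 16 samples was used. Per the methods, the authors trimmed reads, mapped these to hg19 using TopHat with Ensembl annotation and then counted them by gene. The submitters' processing notes name hg38 and edgeR instead, the labels name both NextSeq and HiSeq sequencers, and whether counting used strand is not given in the sources used here. What the authors deposited is a normalized signal: gene read counts over 1 size factor per library. In every library 100% of values were multiples of 1 step, with a largest deviation of 5.46e-05 reads, so the reads were recovered.

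The members and all lists were chosen with earlier results of these data known. Symbols (16633 of 18332 IDs) and GRCh37 positions came from GENCODE. Genes that reached 0.5 CPM in 2 or more samples of a fit were tested with limma 3.58.1 (R 4.3.3; lmFit, eBayes with trend, two-sided) on log2(value + 1), with p-values adjusted by Benjamini-Hochberg and called under 0.05. The fit used the 8 samples of a line, or all 16 for the difference between responses and for the lines in low glucose. On the recovered reads, edgeR 4.0.16 (quasi-likelihood) called 2244 genes for MDA-MB-231 and 7484 for MDA-MB-468, and DESeq2 1.42.0 called 2085 and 6632, where limma called 2245 and 7495. The main limma fit and the edgeR and DESeq2 fits were tested on simulated counts, and the other steps were not.

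Named were all members and, per list and line, up to 3 called genes with the largest difference and at least 1 CPM in the higher group, up to 5 over all lists for the other comparisons, and the 3 genes most like each member by Pearson r, among genes reaching 1 CPM in 4 samples. POR, UGT1A1 and UGT1A6 are named outside this rule, chosen after their values were seen. The alternatives were pseudocounts of 0.5 and 5, a filter of 1 CPM in 4 samples and none, median-of-ratios and quantile rescaling, edgeR, DESeq2, the replicate number as a block, a loess correction for transcript length, and each replicate left out. Same-numbered samples did not deviate together (correlation of deviations from the group means, -0.04 to -0.00512 for MDA-MB-231 and 0.0167 to 0.0319 for MDA-MB-468), so the numbers were not taken to pair samples.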

Additional observations from a re-analysis of the deposited data

Results flagged for a closer look

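Of 28 groups of 4 samples checked for a sample far from the others, 1 stood out by Dixon's ratio: CYP1A1 in replicate 3 of low-glucose MDA-MB-468, at 400.9 normalized reads, where the other replicates lay between 387 and 389. Chance gives about 1 such group in 20.

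The glucose response differed between the lines by limma's interaction contrast for 16 of the named pathway genes. Most of these were named because they had passed in a comparison, so the count partly follows from that rule. Over all tested pathway genes it was 17 of 53, or 32.1% beside 30.9% of all genes. Given as MDA-MB-468 minus MDA-MB-231 on the log2 scale, the difference was negative for ALDH3A1 (-0.86), HSD17B1 (-0.68), STS (-0.58), MED1 (-0.27), KYAT3 (-0.27) and PTGES3 (-0.24). It was positive for GSTP1 (0.83), ARNTL (0.49), AADAT (0.47), NPAS2 (0.43), EPHX1 (0.36), HES1 (0.36), NQO1 (0.35), NRIP1 (0.35), CYB5R3 (0.34) and SMARCA4 (0.21). NQO1 rose in both lines, so its value is a larger rise in MDA-MB-468. The other genes passed within 1 line at most.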

How the results depend on the processing

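The counts of pathway genes that passed kept within 1.5 times of their values under every other setting, except in MDA-MB-231 when a replicate was left out. That count of 7 ranged from 4 to 6, with 4 without replicate 1 of low glucose, 4 without replicate 1 of high glucose and 4 without replicate 2 of high glucose. In MDA-MB-468 the count of 29 ranged from 27 to 30 when a replicate was left out, and for the difference between responses the count of 17 ranged from 15 to 19. Between the lines in low glucose 50 of 53 tested pathway genes passed limma, or 94.3% beside 85.4% of all genes tested. That count ranged from 48 to 51 when a replicate was left out. With the replicate block the counts were 5, 30, 17 and 50, and CREBBP (adjusted p = 0.0688 by limma) and NQO2 (0.0608) lost their calls in MDA-MB-231. CREBBP lost its call under 7 of the 10 settings that keep every library, with adjusted p up to 0.338 by limma after the length correction, which also took NQO2 to 0.0917. DESeq2 took AADAT to an adjusted p of 0.0779 and HES1 to 0.0521. Among the pathway genes named in the report, no called value changed sign under any of these settings. The CYP1A1 difference in MDA-MB-468 stayed between -2.72 and -2.59, and that in MDA-MB-231 between -0.09 and 0.10. The AHR difference in MDA-MB-468 was -0.16 under quantile rescaling. Quantile rescaling moved the split of all genes called in MDA-MB-231 from 850 higher and 1395 lower to 1027 and 1114, and between the lines in low glucose it moved ARNT from -0.02 to 0.07. The correction for transcript length moved the median of all genes between the lines from 0.08 to -0.06, and CYP1A1 there from 3.11 to 2.89. The cause was not tested. ARNT2 in MDA-MB-468 and CYP1A1 in MDA-MB-231 rest on few reads and have the widest errors. AHRR in MDA-MB-468 rests on few reads too, and its SE of 0.16 is close to that of CYP1A1 in MDA-MB-231.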
